A study of Triticum aestivum with 4 samples.

Results

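Among 61179 wheat probe sets, 125 gave clearly higher values in developing seed of RL4452 than of Domain. They were selected by the deposited ratios themselves: the lower of both RL4452 arrays had to exceed 3 times the higher of both Domain arrays. This quotient is called the gap below. AFFX control probe sets were not considered, and 1 probe set that met the rule, the one of the waxy starch synthase gene, was set aside and is described at the end of the results. Since the members were chosen on the contrast between the genotypes, their values are given as a description and that contrast was not tested on them.

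RL4452 and Domain (AC Domain in the design text) are bread wheat (Triticum aestivum) genotypes and the parents of a mapping population. Both were grown untreated in the field at the location labelled SB, in 1.47 m rows of a lattice with 3 field replications. Whole seeds were taken from tagged spikes 5 days after anthesis, and enriched messenger RNA from each sample was labelled and hybridised to an Affymetrix wheat array. There were 4 arrays, biological replicates 1 and 3 of Domain and biological replicates 1 and 3 of RL4452. Each array read a tube of pooled whole seeds, so fewer cells of a type and less RNA per cell cannot be told apart.

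Bread wheat carries several related subgenomes, and most of its genes exist as near-identical copies called homoeologues. The array was designed largely from expressed sequence tags, short reads of cDNA, which had been gathered into transcript clusters. In a name such as Ta.7259.1.S1_a_at, the part up to the second dot is the cluster, the next number is a sequence within the cluster, and S or A gives the orientation assigned to that sequence. Names ending in _at alone denote probes meant to be specific, whereas _a_at, _s_at and _x_at denote probes that can also match related transcripts. Sequences of a cluster can be variants of one transcript or transcripts of close relatives, so a change seen by every sequence and a change seen by a single one describe different things. A higher value can reflect more transcript or a better match of the transcript to the probes, and the values of an array cannot tell these apart.

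None of the 125 members had a gene in the platform annotation, and none of the other probe sets in their clusters had one. The annotation listed a gene for 1273 of the 61179 probe sets, or 2.08%. The members are therefore given by their array names, with no function attached.

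Each deposited ratio is relative to the 4-array median of its probe set, and this shapes how the members' values look. Where the genotypes do not overlap, the median lies midway between the lower RL4452 and the higher Domain array, and those 2 ratios must add up to about 2. In the 125 members the sum ran from 1.9995 to 2.0005. A wide gap therefore shows as Domain ratios near 0 and not as very high RL4452 ratios. The lower RL4452 ratio ran from 1.501 to 1.981, while Domain ratios ran from 0.0133 to 0.499. Quotients between arrays are unaffected by this scaling, but no level of one probe set can be compared with that of another.

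The gap ran from 3.01 to 102.6, with a median of 5.51 and a middle 50% between 4.0 and 12.2. It exceeded 50 in 6 members, lay between 20 and 50 in 18, between 10 and 20 in 12, between 5 and 10 in 34, and between 3 and 5 in 55. The fold between genotype means, taken on the log2 scale, had a median of 7.23 and ran from 3.56 to 132.4. Over all probe sets, 0.206% had a gap above 3 in this direction, counting the one set aside, and since the rule used this contrast nothing further is read from that share. In 24 members both Domain ratios were below 0.1, and these were the same 24 whose gap exceeded 20, as the scaling requires.

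**Figure D1:**
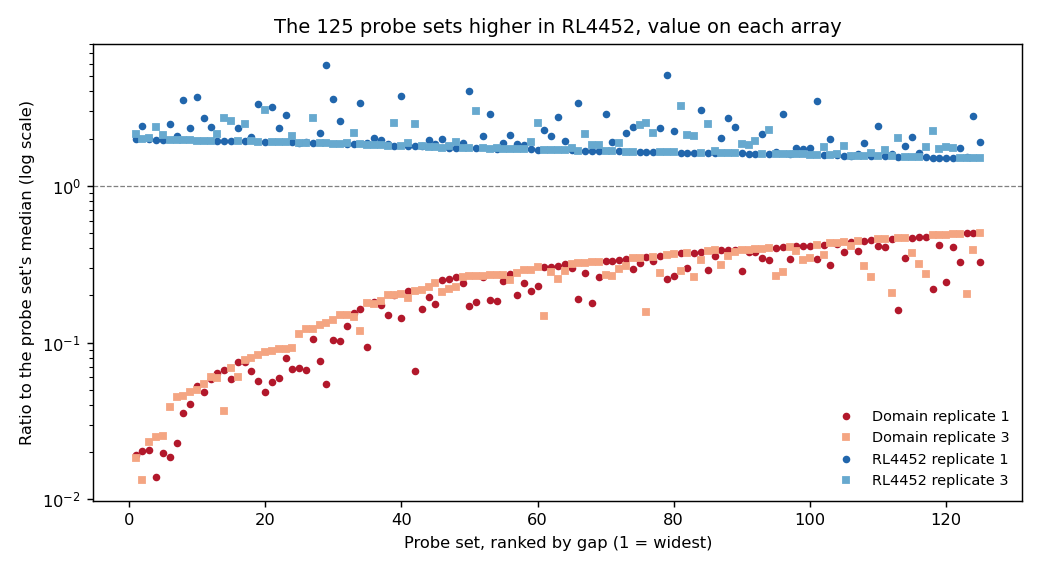
Ratio to the probe set's own median (log scale) on each of the 4 arrays for the 125 members, ranked from the widest gap. RL4452 values lie between 1.501 and 5.925 along the whole ranking, and Domain values climb from 0.0133 to 0.499. The scaling to the median keeps the lower RL4452 array under 2.

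The widest gap belonged to a sequence read by 2 members. Ta.10945.2.A1_a_at had ratios of 0.0193 and 0.0185 on the Domain arrays, replicate 1 first here and below, against 1.981 and 2.151 on the RL4452 arrays, a gap of 102.6. Ta.10945.2.A1_x_at, from the same sequence, had 0.0198 and 0.0253 in Domain against 1.975 and 2.105 in RL4452, a gap of 78.1. On the log2 scale the Domain mean of the first member was -5.73 ± 0.04 and its RL4452 mean 1.05 ± 0.08 (SD, n = 2), given as a description because the rule chose it by these values.

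Next came TaAffx.113846.1.S1_s_at, with 0.0204 and 0.0133 in Domain against 2.403 and 1.980 in RL4452 (gap 97.1). Its fold between genotype means, 132.4, was the highest of the 125. Its probes carry the ending for shared sequences, and no other sequence of its cluster is on the array. Ta.3017.1.S1_at had 0.0207 and 0.0234 in Domain against 1.977 and 2.017 in RL4452 (gap 84.5). Ta.556.2.A1_at had 0.0139 and 0.0249 in Domain against 1.975 and 2.386 in RL4452 (gap 79.3).

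The rest of the 12 widest gaps ran from 50.7 to 32.3. Ta.8659.1.S1_at had 0.0186 and 0.0387 in Domain against 2.464 and 1.961 in RL4452 (gap 50.7). Its Domain arrays differed 2.08-fold, the widest Domain spread among these 12. Ta.6952.1.S1_a_at had 0.0230 and 0.0448 in Domain against 2.077 and 1.955 in RL4452 (gap 43.6). Ta.28263.1.S1_at had 0.0355 and 0.0457 in Domain against 3.517 and 1.954 in RL4452 (gap 42.8), with RL4452 replicate 1 well above replicate 3. The remaining 4 came as pairs that read one sequence each. The 2 members Ta.2895.1.S1_x_at and Ta.2895.1.S1_at had gaps of 40.2 and 32.3, and Ta.7259.1.S1_a_at and Ta.7259.1.S1_at had gaps of 36.9 and 35.5. The ratios of Ta.7259.1.S1_a_at were 0.0528 and 0.0497 in Domain against 3.686 and 1.947 in RL4452.

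A further 12 members had gaps between 20 and 30.1. From single-probe-set clusters came Ta.3211.1.S1_at (gap 28.0), Ta.22090.1.S1_at (25.6), Ta.8888.1.A1_at (24.7), TaAffx.33919.1.S1_at (23.9), Ta.6210.1.S1_at (23.0), Ta.9089.1.A1_at (21.9), TaAffx.16946.1.S1_at (21.0) and Ta.21783.1.S1_at (20.6). For the tightest of these, Ta.22090.1.S1_at and TaAffx.33919.1.S1_at, no genotype had replicates more than 1.24-fold apart. TaAffx.33919.1.S1_at had 0.0658 and 0.0803 in Domain against 2.049 and 1.920 in RL4452. Ta.9089.1.A1_at was more variable, with 0.0487 and 0.0875 in Domain against 1.913 and 3.033 in RL4452. The remaining 4 belong to clusters described below.

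Members at the other end of the ranking were continuous with the probe sets just outside. The 4 narrowest were Ta.30853.1.A1_at (gap 3.03), TaAffx.64962.1.S1_at (3.02), Ta.29361.1.S1_at (3.01) and TaAffx.29857.1.S1_x_at (3.01). Just outside were Ta.14641.1.S1_at at a gap of 3.0, TaAffx.109558.1.S1_s_at at 2.99, and Ta.6364.2.S1_s_at and Ta.26013.1.A1_a_at at 2.98. A further look from 2.5 up to the threshold found 51 probe sets. The number 125 thus depends on where the line is drawn, while the members with gaps above 20 lie far from it.

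**Figure D2:**
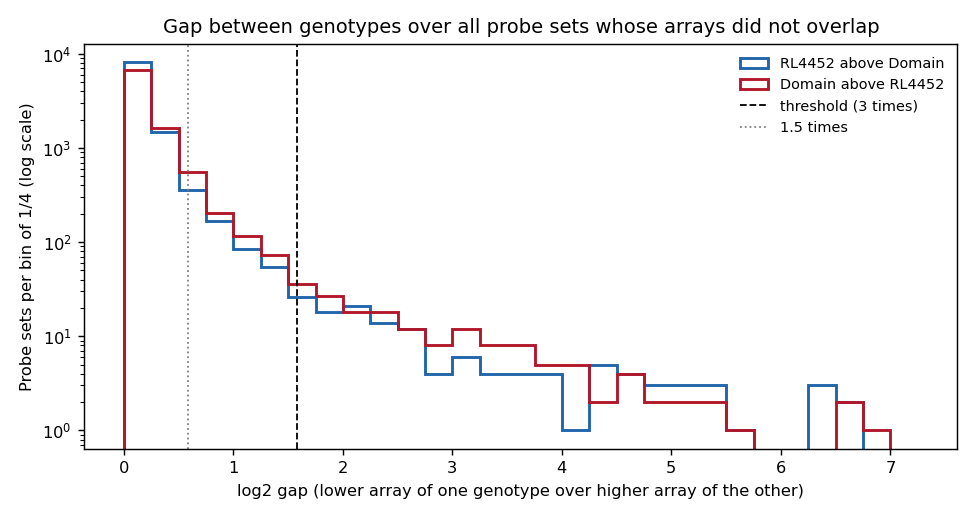
Number of probe sets (log scale) by log2 gap, for probe sets whose RL4452 arrays both lay above Domain (blue) and the reverse (red), in bins of 0.25. Both curves fall smoothly through the threshold of 3 times (dashed line) and carry long tails, to a gap of 102.6 for RL4452 above Domain and 127.2 for Domain above RL4452.

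The rule itself favours probe sets whose replicates lie close together beside the gap. The arrays of a genotype differed by a median of 1.24-fold in Domain and 1.20-fold in RL4452, against 1.18-fold in both genotypes over all probe sets. In all 125 members the gap exceeded the larger replicate fold, and in 114 it was more than 2 times that fold. Replicates differed more than 2-fold in Domain for 9 members and in RL4452 for 6, against 3.22% and 5.4% of all probe sets. Of the members, 1, Ta.9397.1.S1_at, belonged to both counts. That probe set had 0.0547 and 0.134 in Domain against 5.925 and 1.866 in RL4452. Even so, its lower RL4452 array was 13.9 times its higher Domain array.

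Other members with a wide spread were closer to their own replicate error. Ta.14545.1.S1_at had 0.254 and 0.360 in Domain against 5.112 and 1.640 in RL4452, so that its RL4452 arrays differed 3.12-fold against a gap of 4.56. Ta.3727.1.S1_x_at had 0.162 and 0.464 in Domain against 1.536 and 2.015 in RL4452, a Domain difference of 2.86-fold against a gap of 3.31. TaAffx.64962.1.S1_at had 0.497 and 0.204 in Domain against 1.527 and 1.503 in RL4452, a Domain difference of 2.44-fold against a gap of 3.02. In these 3 the gap was less than 2 times the replicate fold. The 6 members with RL4452 arrays more than 2-fold apart all had replicate 1 as the higher one.

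**Figure D3:**
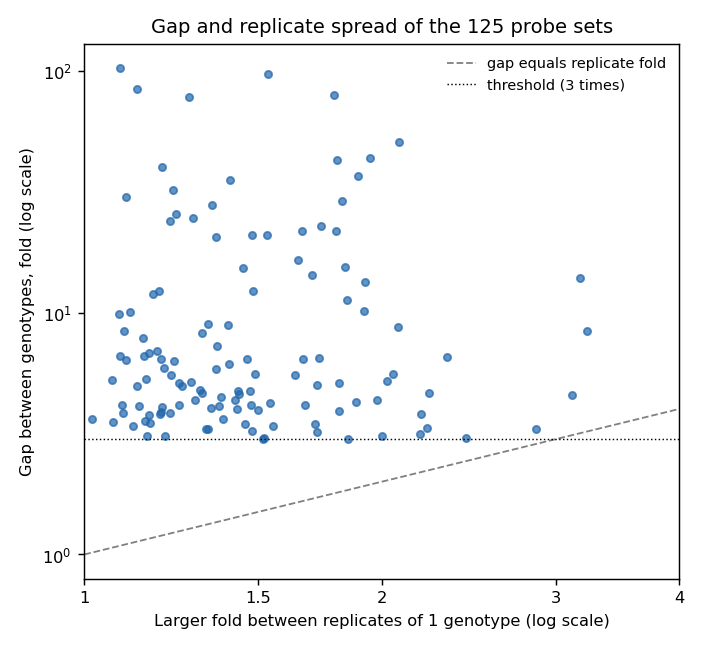
Gap between genotypes against the larger fold between replicates of one genotype for the 125 members, both axes logarithmic. Every point lies above the dashed line of equal size. The 2 points nearest to it are Ta.3727.1.S1_x_at and TaAffx.64962.1.S1_at, described above.

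RL4452 replicate 1 was the higher RL4452 array in 73 of the 125 members (58.4%), against 47.2% of all probe sets. Domain replicate 1 was the higher Domain array in 45 (36.0%), against 45.3% of all probe sets. Each array was hybridised on a day of its own. Of the fluidics modules, 1 served both genotypes, through Domain replicate 3 and RL4452 replicate 1. Between those arrays the members' quotient had a median of 7.62 and ran from 3.08 to 180.7. The rule itself keeps this quotient above 3 in every member, so it is no check on the part of the module. For wheat control transcripts, the 3' minus 5' difference of log2 ratios (median of 7 pairs) was 0.00 in both Domain arrays. It was -0.22 in RL4452 replicate 1 and 0.40 in RL4452 replicate 3. Each ratio is relative to the median of its own probe set, so these values only compare the arrays with each other. They do not give the 3' to 5' signal of an array, and 0.00 does not mark intact RNA. The part of RNA quality in the members' values was not tested.

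The 125 members fell into 111 clusters and 116 distinct sequences. For 66 members the cluster had no other probe set on the array, so nothing can be said of related sequences. The share of such probe sets was 52.8% among members and 60.3% among all probe sets. The other 45 clusters held 2 or more probe sets, and in 12 of them more than 1 was a member, 3 members in 2 clusters and 2 members in 10. In 5 clusters every probe set was a member. These were Ta.3017, Ta.2895, Ta.14426, Ta.25161 and Ta.19612, and in each of them a single sequence was read by an _at and an _x_at probe set.

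Those 5 clusters measure one sequence more than once and are no independent evidence of a change. Their paired gaps were 84.5 and 29.1 for Ta.3017, 40.2 and 32.3 for Ta.2895, 6.14 and 4.46 for Ta.14426, 5.54 and 5.31 for Ta.25161, and 4.15 and 3.88 for Ta.19612. The members of a pair gave gaps of like size, except in Ta.3017.

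In the remaining 40 clusters the members had 68 neighbours, which are probe sets of the same cluster that missed the rule. A neighbour was taken to share the change where its own gap exceeded 1.5. This held for 16 of 68 neighbours (23.5%), against 1.05% of all probe sets, and these 16 lay in 16 of the 40 clusters (40.0%). With any gap at all, meaning both RL4452 arrays above both Domain arrays, the count was 35 of 68, against 17.0% of all probe sets. The opposite pattern, with Domain above RL4452 at a gap over 1.5, was seen in 1 neighbour of 68, against 1.44% of all probe sets. The neighbours' median log2 difference was 0.35, RL4452 minus Domain, against 0.01 over all probe sets, and it ran from -2.99 to 2.63. Neighbours come from the same contrast on the same arrays and may share probes with the members, so these counts carry no test.

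The neighbours were then split by whether they read a member's own sequence. Of 15 neighbours named for the very sequence of a member, 9 shared the change, and the median log2 difference of the 15 was 1.20. Of 53 neighbours from another sequence of the cluster, 7 shared it, and their median was 0.16. Taking only neighbours whose name ends in plain _at, meant to be specific, 4 of 41 shared it, in 4 of 30 clusters. No test of these differences was made.

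**Figure D4:**
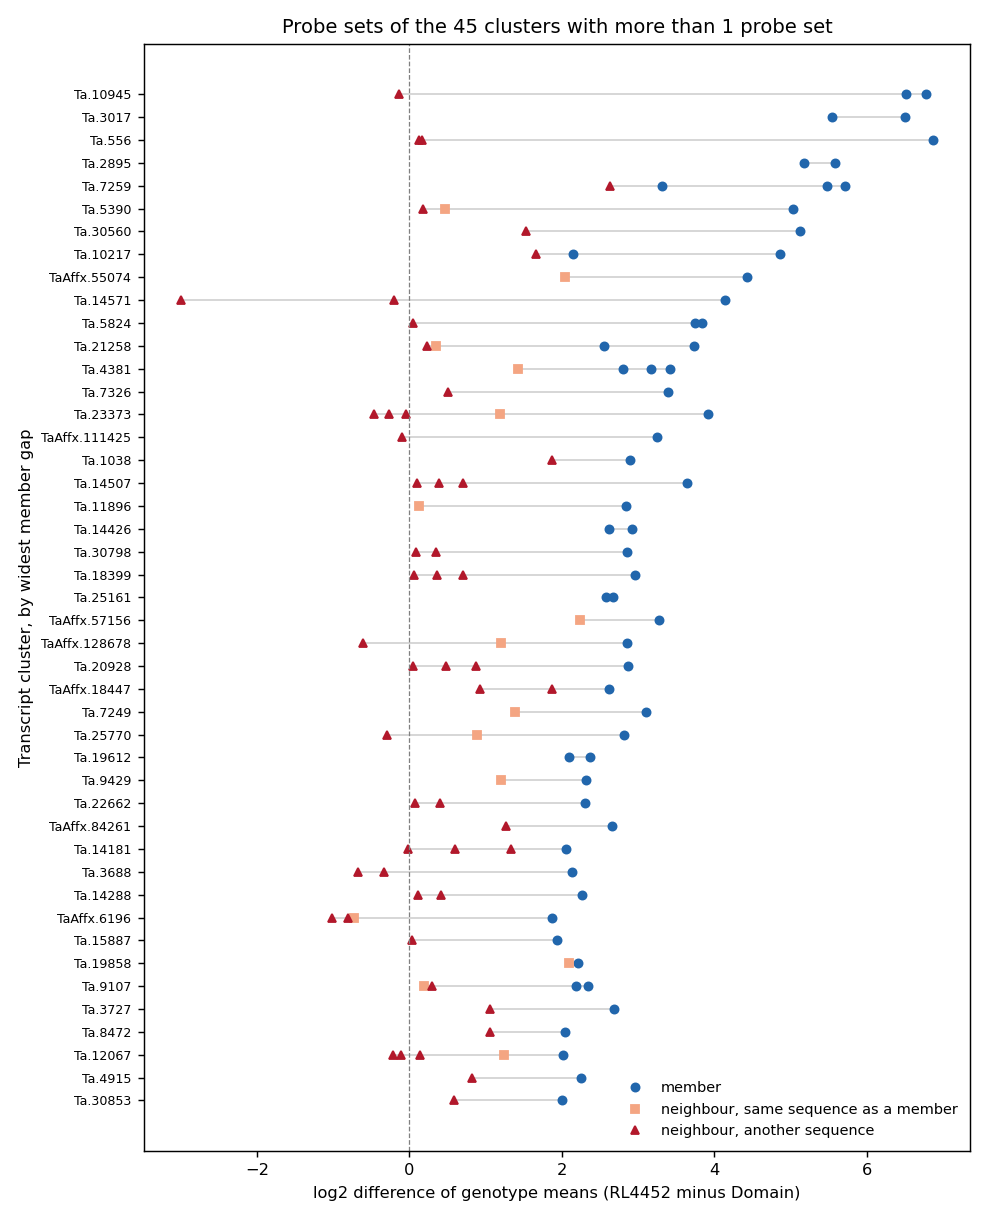
Log2 difference of genotype means (RL4452 minus Domain) for every probe set of the 45 clusters with more than 1 probe set, 1 cluster per line, ordered by the widest member gap. Members (blue circles) lie at 1.87 or higher, neighbours reading the sequence of a member (orange squares) spread between -0.72 and 2.23, and neighbours from another sequence (red triangles) lie mostly near 0 but reach 2.63, with 1 at -2.99.

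Counted by sequence, 34 of the clusters held 2 or more distinct sequences. In 10 of them at least 2 sequences had a gap over 1.5, and in 6 of these 10 every sequence did. In the other 24 only the member's sequence reached that gap. This count by sequence was chosen after the values had been seen. In clusters of the first kind at least 2 sequences passed the line of 1.5, and in those of the second kind one sequence alone did. In 13 of those 24 only the member's sequence had both RL4452 arrays above both Domain arrays. In the rest another sequence did so too, at a narrower gap, such as TaAffx.84261.2.S1_at at 1.42.

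Ta.7259 had the widest gaps among the clusters with a shared change. Besides the pair of the first sequence described above, the third sequence was a member, Ta.7259.3.S1_x_at, with 0.187 and 0.269 in Domain against 2.882 and 1.731 in RL4452 (gap 6.43). The second sequence, Ta.7259.2.S1_a_at, missed the rule with 0.532 and 0.455 in Domain against 6.336 and 1.468 in RL4452 (gap 2.76). Each of the 3 sequences was thus higher in RL4452, but by very different amounts, and RL4452 replicate 1 was the highest array for all of them.

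Ta.10217 and Ta.4381 showed the same in every sequence measured. In Ta.10217 the first sequence had 0.0592 and 0.0907 in Domain against 2.356 and 1.909 in RL4452 (gap 21.0), the third sequence had a gap of 3.39, and the second, with 0.691 and 0.775 in Domain against 4.345 and 1.225 in RL4452, had a gap of 1.58. In Ta.4381 the members Ta.4381.1.S1_s_at, Ta.4381.2.S1_a_at and Ta.4381.1.S1_a_at had gaps of 10.0, 8.39 and 6.38. Its remaining probe set, Ta.4381.2.S1_x_at, had 0.588 and 0.477 in Domain against 1.430 and 1.412 in RL4452 (gap 2.40). The 4 probe sets of Ta.4381 never overlapped between the genotypes, and their replicates differed by at most 1.23-fold. None of the 4 has a plain _at name, so all can also match related transcripts and may not read its sequences separately.

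In further clusters a single member stood beside a weaker neighbour. Ta.30560.1.S1_at had a gap of 21.8, with 0.0564 and 0.0879 in Domain against 3.175 and 1.912 in RL4452, and its neighbour Ta.30560.2.S1_a_at had 2.00, with 0.398 and 0.667 in Domain against 1.671 and 1.333 in RL4452. TaAffx.55074.1.S1_s_at had a gap of 13.4 and its neighbour from the same sequence 2.58. In Ta.23373, the member Ta.23373.1.S1_at had a gap of 8.76 and the other probe set of its sequence 1.94, while the remaining 3 neighbours, from 2 other sequences, had log2 differences of -0.46, -0.27 and -0.05. The change in Ta.23373 was therefore tied to one of its 3 sequences.

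The other 10 clusters with a sharing neighbour had narrower gaps. Their members and sharing neighbours had gaps of 6.63 and 2.19 in Ta.1038, 5.21 and 2.78 in TaAffx.57156, 4.73 and 2.80 in TaAffx.18447, 4.67 and 2.24 in Ta.7249, and 4.36 and 1.53 in Ta.25770. They were 4.03 and 1.88 in Ta.9429, 3.85 and 1.95 in Ta.14181, 3.45 and 2.96 in Ta.19858, 3.31 and 1.65 in Ta.3727, and 3.24 and 1.82 in Ta.12067. Ta.19858 is thus a case where the line of 3 falls between 2 probe sets of like gap that read one sequence. In Ta.12067 and Ta.25770 the sharing neighbour read the sequence of the member. The remaining neighbours had log2 differences of -0.22, -0.10 and 0.14 in Ta.12067 and -0.29 in Ta.25770. Other neighbours that did not share the change were Ta.14181.2.S1_at (gap 1.24) and TaAffx.18447.1.S1_at (gap 1.44). Ta.14181.3.S1_at overlapped between genotypes, with a log2 difference of -0.01.

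Ta.10945, which held the widest gap, was a cluster with a change in one sequence alone. Its other sequence, Ta.10945.1.S1_at, had 0.841 and 1.427 in Domain against 1.024 and 0.976 in RL4452, with overlapping genotypes and a log2 difference of -0.13. In Ta.556, both probe sets of the other sequence, Ta.556.1.S1_at and Ta.556.1.S1_x_at, had gaps of only 1.09 and 1.08, beside 79.3 for the member. In both clusters the member reads a sequence labelled A and the neighbour a sequence labelled S.

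Ta.5390 showed a split within one sequence. Ta.5390.1.S1_at had 0.0644 and 0.0597 in Domain against 1.936 and 2.133 in RL4452 (gap 30.1). Ta.5390.1.S1_x_at, named for the same sequence, had 1.011 and 0.853 in Domain against 1.665 and 0.989 in RL4452, so that its genotypes overlapped. The other sequence, Ta.5390.2.S1_at, had a log2 difference of 0.18. The same split was seen in Ta.11896, where Ta.11896.1.A1_s_at had a gap of 6.46 and Ta.11896.1.A1_at had overlapping genotypes and a log2 difference of 0.12.

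Ta.5824 and Ta.21258 came next by gap among the clusters in which no neighbour shared the change. In Ta.5824 both probe sets of the second sequence were members, with gaps of 12.2 and 10.2, while the first sequence had 2.101 and 0.444 in Domain, a wide spread, and 1.091 and 0.909 in RL4452. In Ta.21258 the second sequence and the third each held a member, with gaps of 11.9 and 4.35. The neighbour Ta.21258.3.S1_at, from the third sequence, had a gap of 1.25, and the first sequence one of 1.06. A member was also found in 2 sequences of Ta.9107, at gaps of 3.35 and 3.21. The first of these, Ta.9107.2.S1_a_at, had Domain arrays 2.22-fold apart. Ta.9107.2.S1_at, named for the same sequence, had 1.144 and 0.674 in Domain against 0.992 and 1.008 in RL4452, so that its genotypes overlapped. Those of the neighbour Ta.9107.3.A1_at overlapped as well. Ta.7326.2.S1_at had a gap of 9.0 and its neighbour Ta.7326.1.S1_at overlapped between genotypes, with 0.838 and 2.396 in the RL4452 arrays.

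Some neighbours had a lower mean in RL4452 without an opposite gap over 1.5, among them the 3 of TaAffx.6196 and 1 of the 2 of TaAffx.128678. In TaAffx.6196 the member TaAffx.6196.2.S1_at had 0.441 and 0.412 in Domain against 1.559 and 1.560 in RL4452, while its 3 neighbours had log2 differences of -1.02, -0.81 and -0.72. The last of these, TaAffx.6196.2.S1_s_at, is named for the member's own sequence. The neighbours' values rested on RL4452 replicate 1, the lowest array for each of them (0.287, 0.210 and 0.483), and none of the 3 separated the genotypes by array. In TaAffx.128678 the neighbour TaAffx.128678.2.S1_at had 1.221 and 1.195 in Domain against 0.805 and 0.779 in RL4452, an opposite gap of 1.48, just short of the line. The other neighbour, TaAffx.128678.1.S1_at, from the same sequence as the member, was higher in RL4452, with 0.597 and 0.815 in Domain against 1.185 and 2.159 in RL4452 (gap 1.45).

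Only in Ta.14571, of the 40 clusters with neighbours, did a neighbour show the opposite at a gap over 1.5. The member Ta.14571.1.S1_at had 0.102 and 0.151 in Domain against 2.580 and 1.849 in RL4452, a gap of 12.2 in favour of RL4452. Its neighbour Ta.14571.2.A1_at had 2.302 and 1.723 in Domain against 0.277 and 0.226 in RL4452, with Domain 6.22 times higher by the same measure. The third sequence, Ta.14571.3.S1_x_at, overlapped between genotypes, with a log2 difference of -0.20. The log2 differences of the first and second sequences were 4.14 and -2.99. It was also the only cluster with probe sets beyond a gap of 3 in both directions.

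Domain above RL4452 at a gap over 3 was found for 154 probe sets, 0.252% of all. Their median gap was 5.38 and their widest 127.2, and 39 exceeded 10, against 36 of the 125 higher in RL4452. In that direction 21 of 156 neighbours shared the change, in 14 of 49 clusters with neighbours. The sets are given side by side, and their difference was not tested.

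The names of the members carry features that the rule did not use. Names of the Ta series made up 94 members (75.2%), against 51.4% of all probe sets, and the TaAffx series 31 (24.8%), against 48.5%. Sequences labelled A were 31 members (24.8%), against 17.4% of all. Plain _at names were 84 members (67.2%), against 79.2% of all, _x_at 19 (15.2% against 11.1%), _s_at 13 (10.4% against 4.31%) and _a_at 9 (7.20% against 5.43%). The 154 probe sets of the other direction had 83.1% Ta names, 26.0% labelled A and 76.0% plain _at. No enrichment was tested.

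The probe set set aside, Ta.2795.1.S1_a_at, reads the granule-bound starch synthase gene Wx-A1 (LOC543395), whose enzyme makes amylose. Its ratios were 0.411 and 0.250 in Domain against 1.765 and 1.589 in RL4452, a gap of 3.87, and it would rank 98 of 126 by gap. It was the only probe set with a listed gene that met the rule. The listed genes next below it were LOC542941 at a gap of 2.30, LOC543060 at 2.20, LOC542796 at 2.04 and LOC543245 at 2.02, chosen after their values were seen.

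Genes of known role in the grain are set beside the members by their counts. Of 2 probe sets listed for starch synthesis, the other, AGP-S, a subunit of ADP-glucose pyrophosphorylase, had a log2 difference of -0.66. The list for storage proteins and grain inhibitors held 31 probe sets of 17 genes. Of these 31, 0 had RL4452 above Domain at a gap over 1.5 and 11 had the opposite, with a median log2 difference of -0.84. Over all probe sets these shares were 1.05% and 1.44%. The size of that median rested on Domain replicate 3, where the list's median ratio was 2.396 and its highest 16.59, against 1.054 and 1.476 on Domain replicate 1. Without Domain replicate 3 the list's median log2 difference was -0.19, and without Domain replicate 1 it was -1.49, in a comparison added after seeing the data. In the same order the count of 11 became 11 and 21, and leaving out 1 array cannot lower it. For histones H2A and H2B (18 probe sets) and for rbcL (28), which encodes the large subunit of the carbon-fixing enzyme Rubisco, none had a gap over 1.5 in either direction, and the medians were 0.09 and 0.03. Ratios to a median hold no level, so these marker genes cannot show which seed tissues were present.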

How the data were processed

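Per the labels' protocols, biotin-labelled cRNA from 4 seed samples was hybridised to Affymetrix wheat arrays. The submitters' processing notes name RMA, with its version and any later step not given in the sources used here. The values the authors deposited are linear ratios: for 99.5% of 61179 probe sets the 4-array median was between 0.998 and 1.002. The column medians ran from 0.987 to 1.007. No signal over background can be had from such ratios, and precision is limited by the number of arrays. Scanner setting files were read only for module and day.

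The 111 AFFX controls were left out. The gap was computed as the lower RL4452 ratio over the higher Domain ratio, with 3 as the threshold for members and 1.5 for a shared change. Log2 differences were taken as RL4452 minus Domain, with SE from the replicate SDs. The gap rule was tested on artificial ratios first. Clusters were read from probe set names. Gene names came from the platform annotation, 770 of whose 771 genes were found in the gene table of IWGSC CS RefSeq v2.1. Gene lists were matched by symbol or synonym: starch synthesis, storage proteins and grain inhibitors, histones H2A and H2B, and rbcL.

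Named probe sets were the 12 with the widest gap, the 4 on each side of the threshold, clusters with 2 or more members, the 6 clusters with the widest gaps with and without a sharing neighbour, clusters with an opposite neighbour, and, chosen after their values were seen, members with a gap over 20 or a wide replicate spread, further clusters with neighbours, and listed genes below the threshold. The members and lists were chosen with earlier results of these data known. Alternatives changed the threshold, the normalization, the pairing by replicate number, the arrays used and the probe sets kept, and the storage protein list without each array was added after seeing the data. Python 3.11.15, pandas 2.3.3, numpy 2.4.6 and matplotlib 3.10.9 were used.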

Additional observations from a re-analysis of the deposited data

How the results depend on the processing

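The count of 125 was 277 at a gap over 2, 70 at a gap over 5, and 209 by genotype means. It was 125 after dividing each array by its median and 147 after quantile normalization, each with 123 of the members retained. With a replicate block, a ratio over 3 within each replicate number, it was 148, and the neighbours' shares were 27.9% and 47.5%. The labels do not say that the numbers pair samples, and replicate differences in Domain and RL4452 correlated at 0.143 across probe sets. Leaving out 1 array can only widen the choice and gave 168 to 232, with 232 without Domain replicate 1 and 202 without RL4452 replicate 3. The share of neighbours with a shared change (23.5%) and of clusters with one (40.0%) became 51.5% and 72.5% at a gap over 1, 11.8% and 20.0% at a gap over 2, 60.0% and 60.0% with clusters by ID up to the third dot, and 9.76% and 13.3% with plain _at neighbours. Leaving out 1 array gave 27.9% to 33.8% and 45.0% to 55.0%. For 40 named members no log2 difference reversed in 240 recomputed values. Leaving out 1 array could not reverse one, because the rule sets both RL4452 arrays above both Domain arrays. Division by the array medians could not either, since those medians were nearly equal. Of the 240 values, 12 moved by more than the replicate SD, all after quantile normalization and by 0.37 at most. Leaving out 1 array cannot move a value past that SD, by arithmetic, so for those values this count is no check. The largest move of the 240 was 0.64, within that SD. A filter on low values was not run, since the ratios hold no level. Without levels, dim probe sets cannot be told from bright ones.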
